A study of Mus musculus with 6 samples.

Results

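Complement and coagulation are plasma protease cascades that meet in injured tissue. In complement, C1q or lectins recognise a target, proteases cut C4, C2 and C3, and the fragments of C3 and C5 coat surfaces, call in leukocytes through receptors and start assembly of a membrane pore, while soluble and membrane-bound inhibitors hold the cascade back. Coagulation starts when tissue factor meets factor VII and ends in fibrin, and the plasminogen activators turn plasminogen into plasmin, which dissolves fibrin and cuts matrix. Most of the plasma proteins are made in the liver, but kidney epithelium, endothelium, fibroblasts and macrophages make some of them locally. The genes described here were taken by name from a list of 48 symbols, in which C1s and C1s1 are alternative names of 1 gene. They correspond to 47 of the 40993 genes of the deposited table, 25 of complement and 22 of coagulation and the plasminogen system.

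The libraries came from whole kidneys of C57BL/6 mice aged 2 months, 3 fed a standard diet and 3 fed an adenine-enriched diet, which injures the kidney through poorly soluble adenine products. They are called standard 1 to 3 and adenine 1 to 3. The sources used here give neither the dose and length of the diet nor the sex of the mice. Nothing in the labels states that samples are separate animals, so a p-value covers only the spread among these libraries, which may be technical. Levels are FPKM (fragments per kilobase of transcript, scaled to the mapped fragments of the library), which can be compared between genes. A ± is an SD over 3 samples, or an SE after a log2 change. A log2 change is a difference of means on the log2(FPKM + 1) scale, adenine minus standard, and it understates the change of genes with low FPKM. A fold is a ratio of mean FPKM. "Rose" and "fell" are used of genes with a Benjamini-Hochberg adjusted p under 0.05 in limma, a linear model fitted over the 15431 genes whose mean over the libraries reached 0.5 FPKM.

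Depth, estimated from the spacing of low values, was 17400000 to 23400000 fragments per library, so that 3 fragments on a transcript of 2 kb correspond to at most 0.0958 FPKM. All 8 markers of kidney epithelium were present. Of these, 4 fell (Lrp2, Slc34a1, Slc5a2 and Slc12a1), 1 rose (Nphs1) and 3 did not pass. Their sum, most of it Umod, was 4563 to 5267 FPKM on the standard diet and 3845 to 5116 FPKM on adenine. With quantile normalization Slc5a2 alone of these 8 passed. Lrp2, Slc34a1, Slc12a1 and Nphs1 then had limma adjusted p = 0.0762, 0.0729, 0.0695 and 0.138. In the 6 fits that left out 1 library, Lrp2 was called in 1, and Slc34a1 and Slc12a1 in 2 each. Of the markers of other cell types, 7 of 7 tested macrophage genes rose, from sums of 77.4 to 101 FPKM to sums of 611 to 1412 FPKM, and 8 of 8 fibroblast and pericyte genes rose, from 129 to 176 FPKM to 463 to 784 FPKM. After median-of-ratios scaling 6 of these 8 rose, and Pdgfra and Cspg4 did not pass (limma adjusted p = 0.0565 and 0.0530). On adenine most of the macrophage sum was Lyz2, at 1175, 559 and 482 FPKM in adenine 1 to 3. Of 8 endothelial markers 1, Tie1, rose, and their sum was 183 to 223 FPKM on the standard diet and 195 to 209 FPKM on adenine. After median-of-ratios scaling no endothelial marker rose, Tie1 included (limma adjusted p = 0.102), and 4 fell, Kdr, Tek, Emcn and Flt1. Fewer cells of a type and less RNA per cell cannot be told apart in whole kidney. The part of these shifts in the results below was not tested. The median log2 change over every gene tested was 0.25. Median-of-ratios scaling brings that median to 0.00, and its values are given where they change the call of a listed gene.

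Of the 47 genes, 26 rose on the adenine-enriched diet and none fell, 12 did not pass the threshold and 9 were below the filter on low values. Over all genes tested, 29.7% rose and 6.84% fell by the same limma test, against 68.4% and 0% of the 38 listed genes tested. At an unadjusted p under 0.05, 27 of the 38 tested genes were higher and 1 was lower. The share of all tested genes at that unadjusted threshold was not counted. The rises were spread over both cascades, with 15 among the 25 complement genes and 11 among the 22 coagulation and plasminogen genes. These totals include the genes below the filter. Of the tested genes, 27 of 38 had every adenine value above every standard value and 4 had every adenine value below, against 44.4% and 11.8% of all tested genes. After median-of-ratios scaling 24 rose and 3 fell, against 16.8% and 15.2% of all tested genes. With quantile normalization 23 rose and 4 fell, while over all tested genes falls slightly outnumbered rises (counts in the last paragraph). With either scaling, falls took a smaller share of the listed genes tested than of all tested genes. The median log2 change of the 38 tested genes was 1.21, against 0.25 for all genes tested. Among these 38, 4 (C6, F10, F13a1 and Masp1) had a standard mean under 0.5 FPKM and were tested because of their level on adenine. The counts therefore describe the genes that could be tested and are no separate support.

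**Figure D1:**
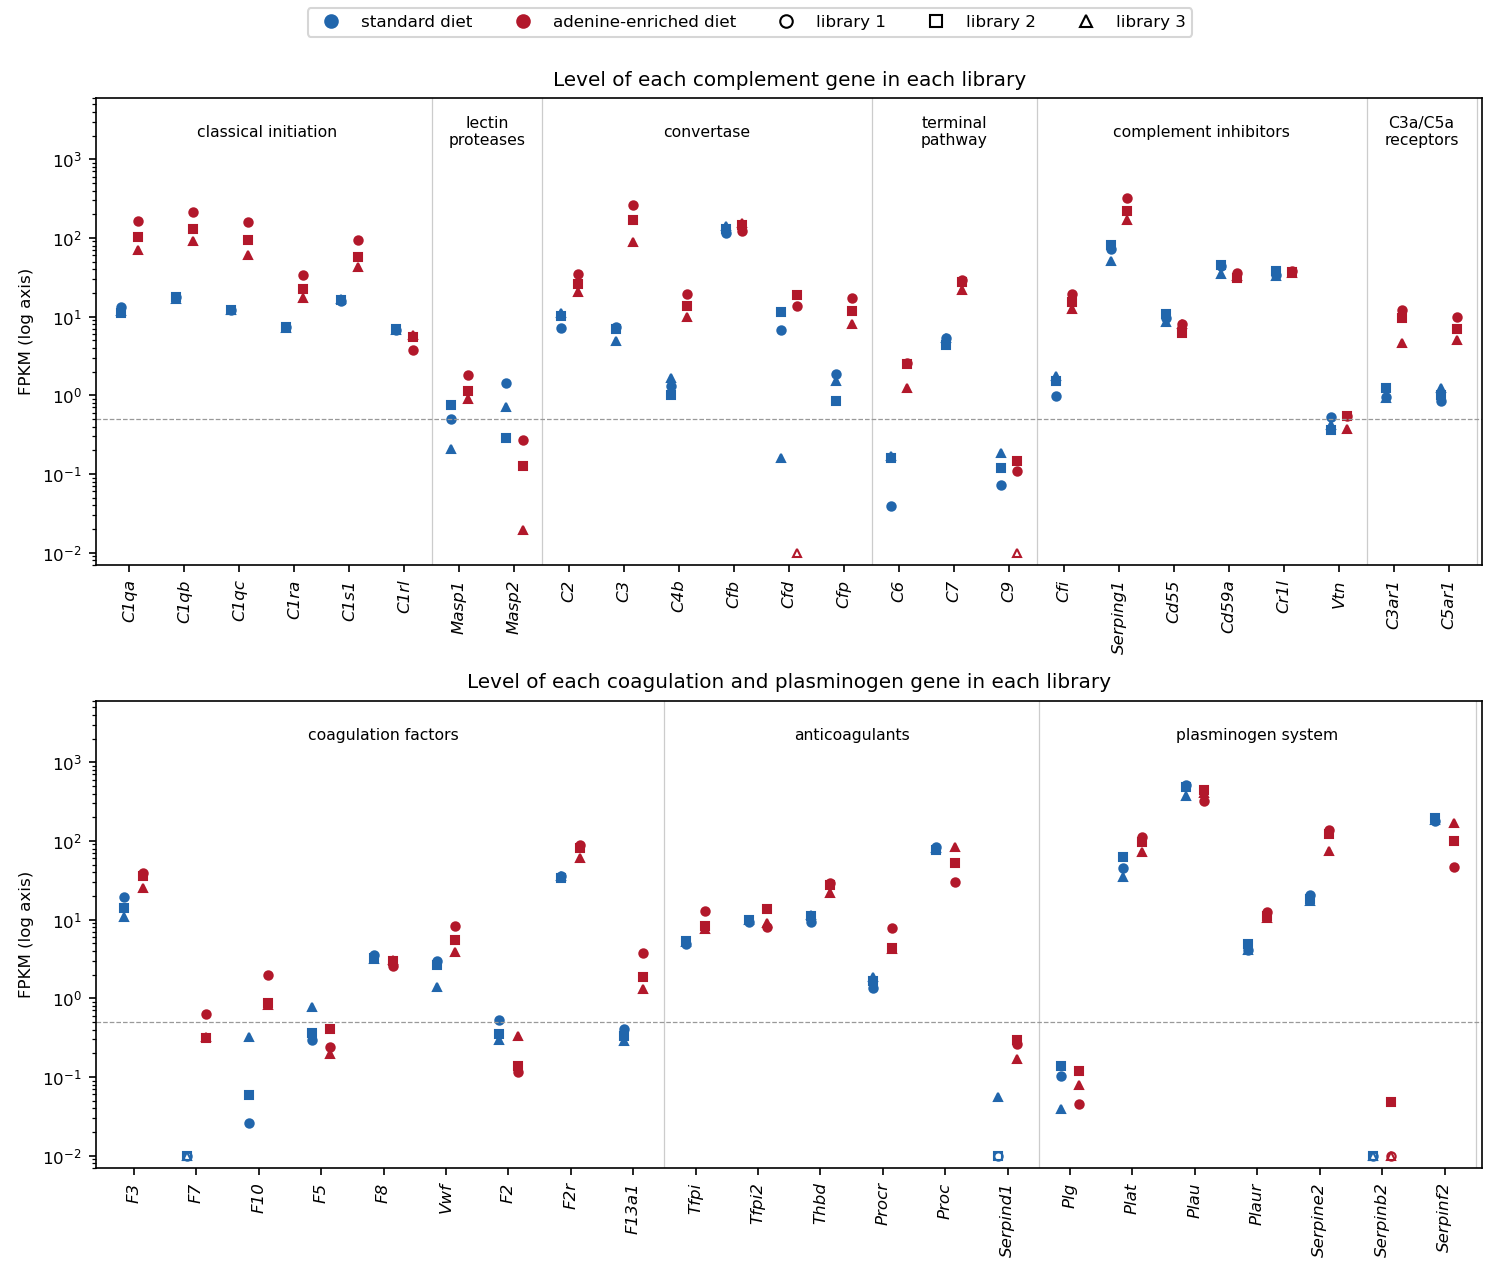
FPKM on a log axis of the 25 complement genes (top) and the 22 coagulation and plasminogen genes (bottom) in each library, blue for standard diet and red for adenine-enriched diet, with circles, squares and triangles for libraries 1, 2 and 3. Hollow symbols at the bottom are values listed at 0, and the dashed line marks the filter of 0.5 FPKM, which applied to the mean over the 6 libraries.

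**Figure D2:**
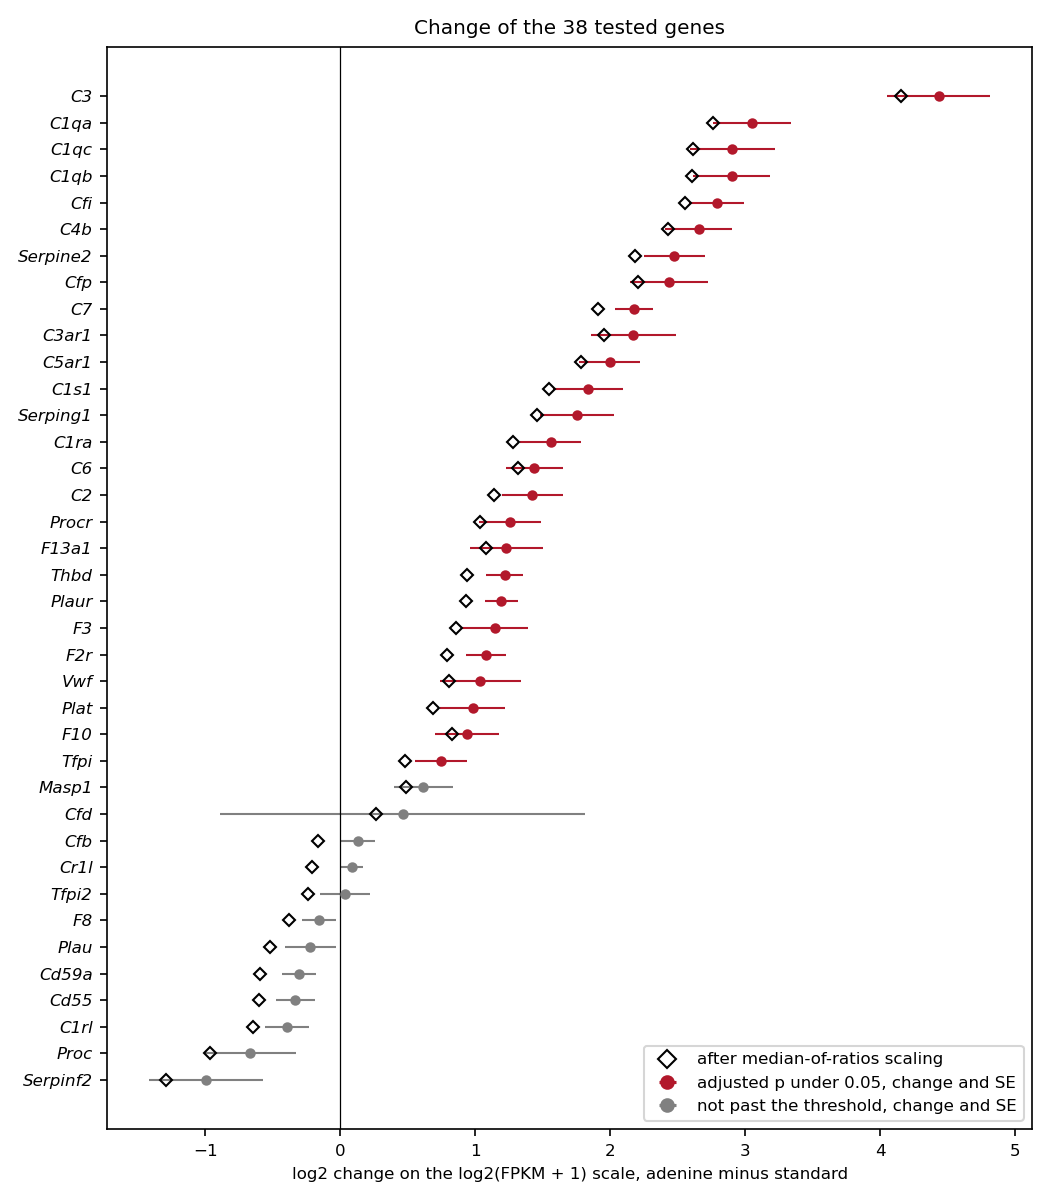
Log2 change of the 38 tested genes on the log2(FPKM + 1) scale, adenine minus standard, with bars of 1 SE; red points passed the threshold and grey points did not. Diamonds give the change after median-of-ratios scaling, which lies to the left of the deposited scaling for every gene shown, and C3 stands at the top with 4.43.

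The stretches upstream of the starts of the listed genes, rising or not, were searched for short motifs. RefSeq windows on GRCm38.p6 were matched by symbol for 34 of the 47 genes, 18 of them rising, and the 250 bases before the start were read on both strands. The heptamer TGANTCA, the recognition element of AP-1 factors, was present in the windows of 8 of the 34 genes (23.5%) and in 6.75% of 32851 windows over all genes. The windows of the 5 rising genes that hold it are shown, together with that of C3, the gene with the highest change, which holds TTGCNNAA, a core recognised by C/EBP factors. Capitals mark TGANTCA, or TTGCNNAA in C3, and bases inside the deposited gene were left off.
C3: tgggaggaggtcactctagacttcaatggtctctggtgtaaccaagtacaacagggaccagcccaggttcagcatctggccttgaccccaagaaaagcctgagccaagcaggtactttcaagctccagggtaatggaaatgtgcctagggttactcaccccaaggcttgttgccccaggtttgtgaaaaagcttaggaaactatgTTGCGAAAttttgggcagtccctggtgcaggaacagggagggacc
C3ar1: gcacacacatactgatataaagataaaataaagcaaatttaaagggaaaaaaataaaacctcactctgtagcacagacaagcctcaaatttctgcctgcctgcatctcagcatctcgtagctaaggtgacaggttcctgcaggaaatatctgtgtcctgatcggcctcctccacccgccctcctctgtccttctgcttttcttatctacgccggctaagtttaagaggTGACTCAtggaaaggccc
F3: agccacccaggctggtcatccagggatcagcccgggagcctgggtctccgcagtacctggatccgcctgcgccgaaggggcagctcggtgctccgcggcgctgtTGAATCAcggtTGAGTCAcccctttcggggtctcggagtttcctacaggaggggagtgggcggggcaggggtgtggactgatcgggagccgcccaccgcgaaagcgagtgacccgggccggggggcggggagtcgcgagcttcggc
F2r: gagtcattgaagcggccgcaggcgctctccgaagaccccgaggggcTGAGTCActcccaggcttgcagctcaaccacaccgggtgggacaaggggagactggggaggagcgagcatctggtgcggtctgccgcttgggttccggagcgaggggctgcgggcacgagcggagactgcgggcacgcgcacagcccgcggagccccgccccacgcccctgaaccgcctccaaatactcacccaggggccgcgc
Procr: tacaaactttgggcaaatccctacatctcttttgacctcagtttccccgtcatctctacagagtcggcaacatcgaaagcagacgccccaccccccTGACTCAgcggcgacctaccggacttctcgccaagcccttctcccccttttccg
Plaur: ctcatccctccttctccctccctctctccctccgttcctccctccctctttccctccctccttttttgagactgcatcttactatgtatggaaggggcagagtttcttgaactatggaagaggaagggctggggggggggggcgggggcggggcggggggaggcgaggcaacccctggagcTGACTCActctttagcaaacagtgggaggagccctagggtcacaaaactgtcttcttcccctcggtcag

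The windows, on the strand of each gene, are chr17:57228137-57228386 (minus) for C3, chr6:122856162-122856407 (minus) for C3ar1, chr3:121723287-121723536 (plus) for F3, chr13:95618467-95618716 (minus) for F2r, chr2:155750967-155751116 (plus) for Procr and chr7:24462233-24462482 (plus) for Plaur. Relative to the RefSeq start, the C3 match lies at -45 to -38. F3, the gene of tissue factor, holds 2 matches to TGANTCA, at -146 to -140 and at -135 to -129. The single matches lie at -22 to -16 in C3ar1, -69 to -63 in Plaur, -154 to -148 in Procr and -204 to -198 in F2r. The other windows with TGANTCA belong to Tfpi2, which did not pass, and to F2 and Serpinb2, which were below the filter and not tested. The RefSeq start used for Tfpi2 lies 6275 bp from its deposited start. TTGCNNAA was present in 7 of the 34 windows (20.6%), 4 of them of rising genes, against 9.56% of all windows. GAGGAA, a core of ETS factors such as PU.1, was present in 7 (20.6%) against 23.3%, TTCNNNGAA, the STAT element, in 2 (5.88%) against 7.02%, the interferon-stimulated response element in 1 (2.94%) against 2.98%, and the NF-kB consensus in 1, C1qc (2.94%) against 3.90%. The interferon-stimulated and STAT patterns can overlap. A match is a run of letters and does not show that a factor binds there. Any link of these motifs to the rise on adenine was not tested.

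The classical pathway begins with C1, a complex of the recognition molecule C1q and the proteases C1r and C1s. All 3 C1q chains, which lie side by side on chromosome 4 (C1qb chr4:136880129-136886187, C1qc chr4:136889804-136893065, C1qa chr4:136895917-136898803, GRCm38), rose 8.32- to 9.41-fold. C1qa was 13.2, 11.2 and 11.6 FPKM in standard 1 to 3 and 165, 103 and 70.8 FPKM in adenine 1 to 3, a log2 change of 3.05 ± 0.29 (SE, limma adjusted p = 0.00332). C1qb was 17.9, 17.5 and 16.9 FPKM on the standard diet and 215, 129 and 91.7 FPKM on adenine, and C1qc was 11.97, 12.2 and 12.1 FPKM against 159, 94.9 and 60.8 FPKM. The lowest adenine library was far above every standard library for each chain. The chains kept close proportions in each library, with C1qb at 1.46 ± 0.108 times C1qa on the standard diet and 1.28 ± 0.0262 times on adenine, and C1qc at 1.01 ± 0.0982 and 0.914 ± 0.0514 times. C1q is a product of tissue macrophages. The 3 chains summed amounted to 0.426, 0.438 and 0.525 times the summed macrophage markers in standard 1 to 3, and to 0.381, 0.449 and 0.366 times in adenine 1 to 3, ranges that overlap. This ratio depends on the markers chosen. Most of that sum on adenine was Lyz2, which rose 15.0-fold, while the single macrophage markers rose between 2.49-fold (Csf1r) and 18.8-fold (Itgam). Whether C1q kept pace with macrophage content was not tested.

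The proteases of C1 rose by less. C1ra, the protease that activates C1s, was 7.44, 7.31 and 7.17 FPKM in standard 1 to 3 and 33.4, 22.7 and 17.0 FPKM in adenine 1 to 3. C1s1, which cuts C4 and C2, was 15.9, 16.4 and 16.9 FPKM and then 93.3, 57.0 and 43.0 FPKM. The log2 changes were 1.56 ± 0.23 and 1.84 ± 0.26 (limma adjusted p = 0.00664 and 0.00643), and neither gene's groups overlapped. C1s1 lay over 11400 bp with the antisense gene Gm16567, listed at 15.9 to 21.3 FPKM on the standard diet and 43.3 to 81.2 FPKM on adenine. Since strand use is not stated, reads of C1s1 and Gm16567 cannot be told apart. The near-identical copies C1rb and C1s2 stood at 0.0351 FPKM or less and 0.362 FPKM or less. C1rl, a C1r-like protease gene next to C1ra (1988 bp between them on chromosome 6), went the other way: 6.73, 6.998 and 6.82 FPKM on the standard diet and 3.78, 5.54 and 5.85 FPKM on adenine. Its adenine values were all below its standard values, but the log2 change of -0.39 ± 0.16 did not pass (limma adjusted p = 0.0985), except after median-of-ratios scaling (-0.64, adjusted p = 0.0373) and quantile normalization (-0.85, adjusted p = 0.0407).

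The lectin pathway proteases were scarce. Masp1 was 0.504, 0.741 and 0.207 FPKM in standard 1 to 3 and 1.80, 1.14 and 0.900 FPKM in adenine 1 to 3, with a log2 change of 0.62 ± 0.22 (limma adjusted p = 0.0634, and 0.0424 without adenine 3). Masp2 was 1.43, 0.287 and 0.716 FPKM on the standard diet and 0.269, 0.126 and 0.0196 FPKM on adenine, and its mean of 0.474 FPKM kept it just below the filter. With no filter its log2 change was -0.63 (limma adjusted p = 0.108). Masp2 shares 3118 bp with the antisense gene Tardbp, which stood at 199 to 247 FPKM.

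Of the genes for the C3 convertases and their amplification loop, C3, C4b, C2 and Cfp rose and Cfb and Cfd did not pass. C3, the central component that all 3 pathways cut, had the highest log2 change of all the genes (chr17:57203970-57228136): it was 7.30, 6.92 and 4.95 FPKM in standard 1 to 3 and 262, 168 and 87.5 FPKM in adenine 1 to 3, a 27.0-fold difference of means and a log2 change of 4.43 ± 0.38 (SE, limma adjusted p = 0.00324). Even its lowest adenine library exceeded the highest standard library many times over. C4b, which forms the classical convertase with C2, was 1.32, 1.02 and 1.67 FPKM and then 19.3, 13.5 and 9.73 FPKM (limma adjusted p = 0.00332). Its near-identical copy C4a stood at 0.591 to 0.967 FPKM on the standard diet and 0.720 to 1.96 FPKM on adenine, and reads may be split between them. C2 was 7.19, 10.1 and 10.98 FPKM on the standard diet and 34.8, 26.3 and 20.5 FPKM on adenine (log2 change 1.42 ± 0.22, limma adjusted p = 0.00762). Cfp, the gene of properdin, which stabilises the alternative convertase and is made by leukocytes, was 1.89, 0.844 and 1.51 FPKM and then 17.2, 11.8 and 8.12 FPKM (log2 change 2.44 ± 0.29, limma adjusted p = 0.00470). In C4b, C2 and Cfp, too, every adenine library was above every standard library.

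Factor B, the protease of the alternative convertase, was abundant on both diets. Cfb was 116, 129 and 142 FPKM in standard 1 to 3 and 124, 146 and 155 FPKM in adenine 1 to 3. The groups overlapped, and the log2 change of 0.13 had a 95% interval of -0.17 to 0.43 (limma adjusted p = 0.416), with the opposite sign after median-of-ratios scaling. Cfb and C2 are neighbours on chromosome 17 with 85 bp between them and read in the same direction. The level of C2 went from 0.0725 ± 0.00912 to 0.198 ± 0.0761 times that of Cfb, and the level of C3 went from 0.0504 ± 0.0142 times that of Cfb on the standard diet to 2.12, 1.15 and 0.563 times in adenine 1 to 3. In adenine 1 and 2, but not in adenine 3 or on the standard diet, the C3 transcript was thus above Cfb.

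Factor D, the protease that activates factor B and an abundant product of fat cells, varied widely between the libraries of each diet. Cfd was 6.75, 11.6 and 0.157 FPKM in standard 1 to 3 and 13.8, 19.0 and 0 FPKM in adenine 1 to 3. The third library of each diet was near or at 0, while the other libraries held 6.75 FPKM or more. The log2 change was 0.46 ± 1.35 (limma adjusted p = 0.797). Its 95% interval of -2.78 to 3.70 is too wide to tell whether the diets differed. The 5 adipocyte markers summed to 5.85, 8.51 and 0.0990 FPKM in standard 1 to 3 and 6.51, 14.0 and 0.169 FPKM in adenine 1 to 3. Adipoq, the fat hormone adiponectin, was listed at 0 in standard 3 and adenine 3. The part of fat tissue in the Cfd values was not tested.

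**Figure D3:**
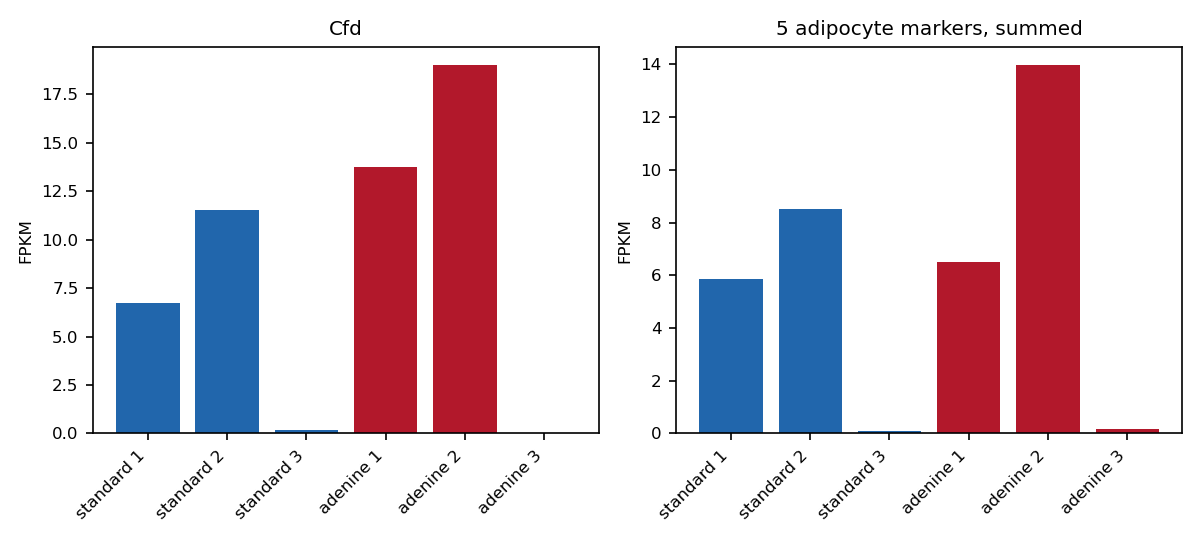
FPKM of Cfd (left) and of the 5 adipocyte markers Adipoq, Plin1, Cidec, Retn and Lep summed (right) in each library, blue for standard and red for adenine. Both are near 0 in standard 3 and adenine 3, and both are highest in adenine 2, at 19.0 and 14.0 FPKM.

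C6, C7 and C9 belong to the membrane attack complex, the pore that ends the cascade. C7 (chr15:4988762-5063773) was 5.40, 4.34 and 5.28 FPKM in standard 1 to 3 and 29.1, 27.8 and 22.0 FPKM in adenine 1 to 3. The log2 change of 2.18 ± 0.14 (limma adjusted p = 0.00295) came with a narrow spread in both groups, and the groups did not overlap. C6, 173305 bp away, was 0.0388, 0.158 and 0.168 FPKM on the standard diet, at the level of a few fragments, and 2.56, 2.48 and 1.25 FPKM on adenine (log2 change 1.44 ± 0.21, limma adjusted p = 0.00706). C9, whose many copies line the pore, stayed below the filter with 0.0721 to 0.183 FPKM and 0 to 0.147 FPKM. Against the summed fibroblast and pericyte markers, C7 stood at 0.0332 ± 0.00680 on the standard diet and 0.0430 ± 0.00541 on adenine.

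Of the 6 inhibitors listed, Cfi and Serping1 rose, Cd55, Cd59a and Cr1l did not pass, and Vtn was below the filter. Cfi, the protease that inactivates the C3 and C4 fragments (chr3:129836739-129875328), was 0.981, 1.53 and 1.73 FPKM in standard 1 to 3 and 19.6, 15.3 and 12.5 FPKM in adenine 1 to 3 (11.2-fold, log2 change 2.79 ± 0.20, limma adjusted p = 0.00295). Serping1, the C1 inhibitor that also blocks kallikrein, was 72.5, 82.4 and 51.0 FPKM and then 324, 218 and 171 FPKM (log2 change 1.75 ± 0.27, limma adjusted p = 0.00762). Both rose with no overlap between the groups. Relative to C1s1, one of its targets, Serping1 was 4.20 ± 1.05 times as high on the standard diet and 3.76 ± 0.257 times on adenine. The 3 that did not pass are membrane proteins. Cd55, which speeds the decay of convertases, was 9.62, 10.8 and 8.47 FPKM on the standard diet and 8.16, 6.26 and 7.96 FPKM on adenine, and Cd59a, which blocks the pore, was 44.6, 44.6 and 34.3 FPKM and then 36.0, 30.7 and 32.3 FPKM. Their log2 changes of -0.33 ± 0.14 and -0.30 ± 0.13 did not pass (limma adjusted p = 0.108 and 0.104). After median-of-ratios scaling both fell, by 0.60 each (limma adjusted p = 0.0175 and 0.0114), as they did with quantile normalization (adjusted p = 0.0152 and 0.0359), and Cd59a also fell without standard 3 (adjusted p = 0.0452). The related gene Cd59b was 10.9, 7.15 and 6.96 FPKM on the standard diet and 6.44, 3.28 and 4.35 FPKM on adenine. Its adenine values were all below its standard values, but it was not among the genes that fell. Cr1l, the rodent regulator Crry, lay between 32.9 and 38.3 FPKM in all libraries, with a 95% interval of the log2 change of -0.12 to 0.29. Vtn, the gene of vitronectin, which binds the forming pore, was 0.366 to 0.527 FPKM and 0.375 to 0.552 FPKM, below the filter.

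C3a and C5a, the small fragments released from C3 and C5, act on leukocytes through C3ar1 and C5ar1. C3ar1 was 0.961, 1.23 and 0.921 FPKM in standard 1 to 3 and 12.2, 9.50 and 4.55 FPKM in adenine 1 to 3. C5ar1 was 0.854, 1.01 and 1.24 FPKM and then 9.88, 6.98 and 5.08 FPKM. Both receptors rose without overlap, by 2.17 ± 0.32 and 2.00 ± 0.23 on the log2 scale (limma adjusted p = 0.00670 and 0.00443). Divided by the summed macrophage markers, C3ar1 was 0.0115 ± 0.00188 on the standard diet and 0.00971 ± 0.00296 on adenine, and C5ar1 was 0.0117 ± 0.00385 and 0.00830 ± 0.00129. C3 divided in the same way was 0.0722, 0.0741 and 0.0639 on the standard diet and 0.186, 0.231 and 0.143 on adenine, without overlap. On adenine most of that divisor was Lyz2.

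In coagulation, the initiator, the thrombin receptor and several factors rose. F3, tissue factor (its window with TGANTCA is shown above), was 19.5, 14.1 and 10.7 FPKM in standard 1 to 3 and 39.3, 36.0 and 25.3 FPKM in adenine 1 to 3 (2.27-fold, log2 change 1.15 ± 0.25, limma adjusted p = 0.0163). F2r, the thrombin receptor PAR1, was 35.6, 34.2 and 36.1 FPKM and then 89.7, 80.5 and 60.4 FPKM (limma adjusted p = 0.00617). For both, every adenine library was above the standard libraries. F7, the partner of tissue factor, was listed at 0 in every standard library, and adenine 1 to 3 had 0.638, 0.313 and 0.319 FPKM, below the filter, so no fold is given. With no filter the log2 change of F7 was 0.50 (limma adjusted p = 0.0199). Its neighbour F10 (1498 bp between them on chromosome 8) was 0.0263, 0.0590 and 0.317 FPKM on the standard diet and 1.97, 0.868 and 0.812 FPKM on adenine (limma adjusted p = 0.0256). F13a1, the transglutaminase that crosslinks fibrin and a product of macrophages and platelets, was 0.412, 0.335 and 0.290 FPKM and then 3.75, 1.84 and 1.33 FPKM (log2 change 1.23 ± 0.27, limma adjusted p = 0.0174). Relative to the summed macrophage markers, mostly Lyz2 on adenine, it was 0.00380 ± 0.000247 on the standard diet and 0.00245 ± 0.000251 on adenine.

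Vwf, the von Willebrand factor of endothelium and platelets, was 2.95, 2.65 and 1.39 FPKM in standard 1 to 3 and 8.39, 5.57 and 3.85 FPKM in adenine 1 to 3 (log2 change 1.04 ± 0.30, limma adjusted p = 0.0367). Median-of-ratios scaling gave an adjusted p of 0.0573. F8, the cofactor it carries, also an endothelial product, was 3.51, 3.27 and 3.17 FPKM and then 2.58, 2.97 and 3.08 FPKM (log2 change -0.16, 95% interval -0.45 to 0.14). Its adenine values were all lower, and it fell with quantile normalization (limma adjusted p = 0.0281). F8 shares 217 bp with the antisense gene Fundc2, at 32.4 to 33.3 FPKM on the standard diet and 26.4 to 28.4 FPKM on adenine. Since strand use is not stated, reads of the shared stretch cannot be told apart. Of the 8 platelet markers Gp9 was at 0 in all libraries and 1 of 2 tested rose, Pf4, from 0.640 to 1.91 FPKM to 5.48 to 13.5 FPKM. The other, Itga2b, had means of 7.86 FPKM on the standard diet and 5.56 FPKM on adenine (log2 change -0.46, limma adjusted p = 0.0965). It fell after median-of-ratios scaling (adjusted p = 0.0371) and with quantile normalization (0.0357). The platelet sum was 8.69 to 10.2 FPKM on the standard diet and 11.01 to 19.7 FPKM on adenine, and its part in Vwf and F13a1 was not tested. F5 and F2, the genes of factor V and prothrombin, were below the filter, with at most 0.771 and 0.529 FPKM in any library.

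All 15 rising complement genes were called in each of the 6 fits that left out 1 library, as were 5 of the 11 rising coagulation and plasminogen genes (F2r, Thbd, Procr, Plaur and Serpine2). The difference between these tallies was not tested. The same tally was not made over all rising genes, so no background share can be set beside it. F3 was not called without standard 2 or adenine 2 (limma adjusted p = 0.0535 and 0.0598), and F10 was not called without standard 1, 2 or 3 or adenine 2 (0.0784, 0.0776, 0.0509 and 0.0579) and fell below the filter without adenine 1. Vwf was called only without adenine 3 (0.0175, against 0.0624 to 0.1002 without each of the others). F13a1 was not called without standard 1, 2 or 3 or adenine 2 (0.0517, 0.0556, 0.0574 and 0.0521). F10 and Vwf were also not called with quantile normalization (0.0836 and 0.105).

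Thrombin is turned from a clotting to an anticoagulant enzyme by thrombomodulin on endothelium, where the protein C receptor binds protein C. Thbd, thrombomodulin, was 9.35, 11.2 and 11.4 FPKM in standard 1 to 3 and 29.3, 27.5 and 22.0 FPKM in adenine 1 to 3 (2.46-fold, log2 change 1.22 ± 0.14, limma adjusted p = 0.00428). Procr, the protein C receptor, was 1.35, 1.63 and 1.87 FPKM and then 7.77, 4.32 and 4.19 FPKM (log2 change 1.26 ± 0.23, limma adjusted p = 0.0110). Neither gene's groups overlapped. Tfpi, which blocks tissue factor with factor VII, was 4.91, 5.35 and 5.14 FPKM on the standard diet and 12.7, 8.19 and 7.62 FPKM on adenine. Its log2 change of 0.75 ± 0.19 passed (limma adjusted p = 0.0267), but not after median-of-ratios scaling (0.0582), with quantile normalization (0.139), or without standard 1, 2 or 3 or adenine 2 (0.0778, 0.0687, 0.0743 and 0.0608). Divided by the endothelial sum, which overlapped between diets, Thbd was 0.0518 ± 0.0102 and 0.131 ± 0.0158, Procr was 0.00789 ± 0.00212 and 0.0269 ± 0.00883, and Tfpi was 0.0248 ± 0.00304 and 0.0472 ± 0.0118 on the standard and adenine diets. The related inhibitor Tfpi2 was 9.42 to 9.99 FPKM and 8.08 to 13.7 FPKM, with a log2 change of 0.03 (95% interval -0.41 to 0.48).

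Proc, protein C itself, was 84.8, 77.2 and 81.3 FPKM in standard 1 to 3 and 29.6, 52.1 and 84.2 FPKM in adenine 1 to 3. Adenine 3 lay within the standard range and adenine 1 far below it, and the log2 change of -0.67 ± 0.34 did not pass (limma adjusted p = 0.162, and 0.0181 without adenine 3). Of the 4 liver markers tested 1 rose, Serpina1a, and 1 fell, Apoa2. The liver sum was 132 to 180.1 FPKM on the standard diet and 116 to 285 FPKM on adenine, most of it Ttr. Alb, the gene of albumin, was 3.52 to 5.86 FPKM and 2.67 to 3.63 FPKM, and Ahsg was at 0 in all libraries but adenine 1. The part of liver transcripts in the Proc values was not tested. Serpind1, heparin cofactor II, was at 0, 0 and 0.0553 FPKM on the standard diet and 0.261, 0.292 and 0.170 FPKM on adenine, below the filter, and lies within the span of the antisense gene Pi4ka, at 30.8 to 59.4 FPKM. With no filter the log2 change of Serpind1 was 0.28 (limma adjusted p = 0.0183).

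In the plasminogen system the activator Plat, the receptor Plaur and the inhibitor Serpine2 rose, the activator Plau and the inhibitor Serpinf2 did not pass, and Plg and Serpinb2 were below the filter. Plau, urokinase, the most abundant of all these genes (chr14:20836662-20843388), was 521, 477 and 368 FPKM in standard 1 to 3 and 325, 444 and 401 FPKM in adenine 1 to 3. Its groups overlapped, and the log2 change was -0.22 (95% interval -0.67 to 0.23, limma adjusted p = 0.374). Plat, the tissue-type activator, was 45.8, 62.3 and 34.6 FPKM and then 111, 96.6 and 73.0 FPKM (1.97-fold, log2 change 0.98 ± 0.24, limma adjusted p = 0.0239). Plat thus went from 0.104 ± 0.0231 to 0.247 ± 0.0839 times Plau, and remained below it in every library. The call of Plat was lost without standard 1, standard 3, adenine 1 or adenine 2 (limma adjusted p = 0.0688, 0.0636, 0.0614 and 0.0769).

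Plaur, the urokinase receptor, was 4.13, 4.95 and 4.05 FPKM in standard 1 to 3 and 12.3, 11.2 and 10.4 FPKM in adenine 1 to 3, a tight rise of 1.20 ± 0.12 on the log2 scale (limma adjusted p = 0.00402). Serpine2, protease nexin 1, which inhibits thrombin and urokinase (chr1:79794197-79861180), was 20.4, 18.0 and 17.3 FPKM and then 137, 122 and 74.5 FPKM (5.98-fold, log2 change 2.47 ± 0.23, limma adjusted p = 0.00332). In neither gene did the groups overlap. Serpinf2, the gene of the plasmin inhibitor alpha-2-antiplasmin, was 179, 195 and 185 FPKM on the standard diet and 47.2, 100.2 and 169 FPKM on adenine. Every adenine value was below the standard range, most in adenine 1 and least in adenine 3, and the log2 change of -0.99 ± 0.42 did not pass (limma adjusted p = 0.104, and 0.0154 without adenine 3). Plg, plasminogen itself, was 0.0392 to 0.137 FPKM and 0.0454 to 0.119 FPKM, at the level of a few fragments, and Serpinb2 was at 0 in all libraries but adenine 2, with 0.0474 FPKM.

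The adenine libraries differed in size of response. In all 26 rising genes adenine 1 was highest and adenine 3 lowest, against 70.2% of all genes that rose, and after median-of-ratios scaling this held for 22 of the 26 against 52.0%. Among the 25 rising genes of the other cascade genes the order held in 15, a lower share than over all rising genes, and in 11 after that scaling. The macrophage sum had the same order, with 1412, 728 and 611 FPKM in adenine 1 to 3, as did the fibroblast and pericyte sum, with 784, 626 and 463 FPKM. Proc and Serpinf2 had the reverse order, as did the kidney epithelium sum, with 3845, 4734 and 5116 FPKM in adenine 1 to 3. Estimated depth was 23400000, 22700000 and 17500000 fragments in adenine 1 to 3. The part of depth and of these cell types in the order was not tested.

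**Figure D4:**
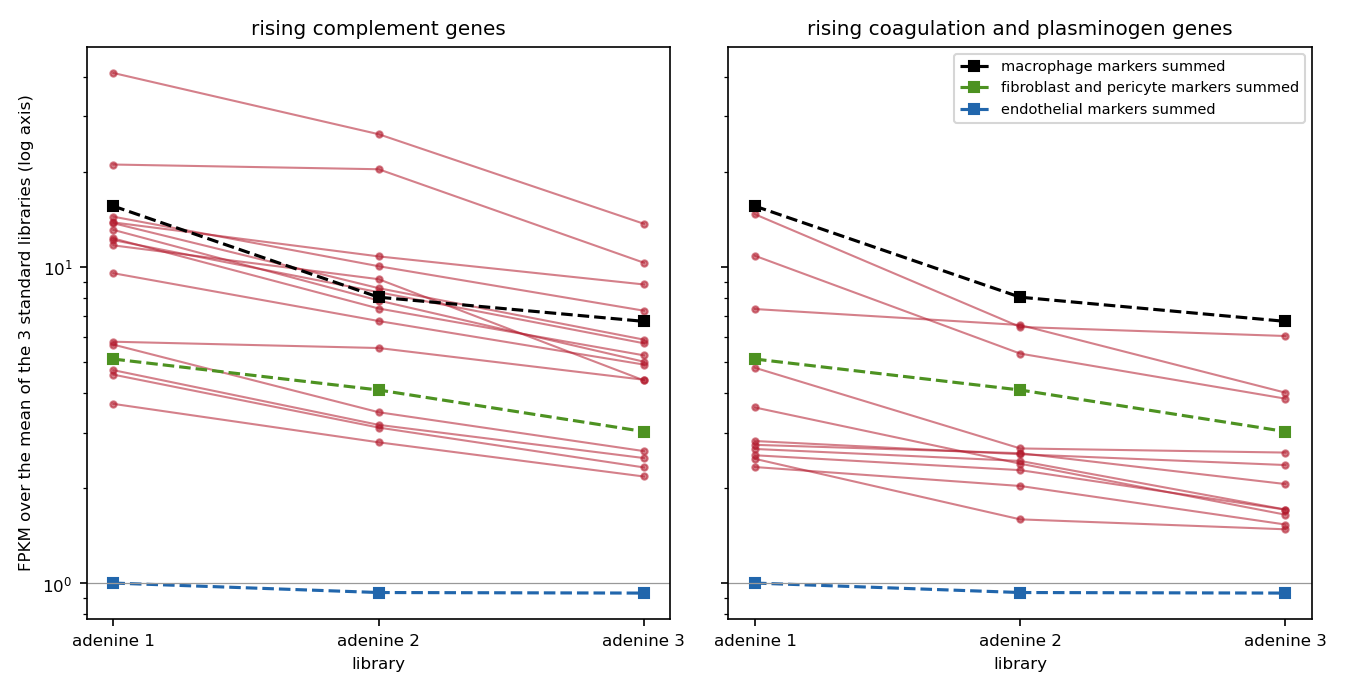
Level of each rising gene in adenine 1, 2 and 3 divided by its mean over the standard libraries (log axis), for complement (left, 15 genes) and for coagulation and plasminogen (right, 11 genes); red lines join the values of 1 gene and do not stand for a time course. Dashed lines give the sums of macrophage (black), fibroblast and pericyte (green) and endothelial (blue) markers on the same scale, the endothelial sum staying near 1.

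Of 63 other genes of these cascades, 45 were tested, 25 rose and 3 fell, and their median log2 change was 0.46. Over all genes tested, 29.7% rose and 6.84% fell, so that the share of falls, 6.67%, lay near that of all genes. Median-of-ratios scaling gave 19 rises and 8 falls, against 16.8% and 15.2% of all genes. The largest rises were those of Serpina10, the protein Z-dependent protease inhibitor, from 0.532, 0.224 and 0.289 FPKM to 22.7, 30.5 and 19.6 FPKM, of Fgg, the fibrinogen gamma chain, from 2.73, 3.25 and 5.68 FPKM to 62.9, 98.1 and 64.9 FPKM, and of Clu, clusterin, an inhibitor of the pore, from 59.2, 87.8 and 90.7 FPKM to 712, 927 and 491 FPKM (limma adjusted p = 0.000798, 0.00295 and 0.00327). The 3 falls were those of F13b, the carrier subunit of factor XIII, from 49.4, 60.2 and 75.9 FPKM to 18.0, 26.2 and 34.3 FPKM, of Proz, protein Z, the cofactor of Serpina10, from 2.27, 2.61 and 2.38 FPKM to 0.732, 0.893 and 1.19 FPKM, and of Mbl1, a mannose-binding lectin, from 3.67, 4.38 and 4.05 FPKM to 2.42, 2.11 and 2.85 FPKM (limma adjusted p = 0.0146, 0.00997 and 0.0264). None of these 6 genes had overlapping groups. F13b was not called without adenine 2 (limma adjusted p = 0.0502), and Mbl1 was called only without adenine 3 (0.0176) among the fits that left out 1 library. F13a1 and F13b, the subunits of factor XIII, moved in opposite directions, as did Serpina10 and Proz. Serpina10, Proz and F13b were named for the size of their changes. F13a1 and Serpina10 were tested because of their level on adenine. These pairs are therefore no separate support.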

How the data were processed

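Whole-kidney RNA was sequenced as 100 bp pairs on an Illumina HiSeq2500 from TruSeq libraries, per the labels' protocols. Per the submitters' processing notes, bcl2fastq 2.0, TopHat and Cufflinks 2.1.1 were used with mm10 and GRCm38; no TopHat version, annotation or strand setting was stated. FPKM per gene were deposited by the authors. The 6 value columns of a table of other mice were not used. Depth was estimated from the steps of FPKM below 0.3 in genes with 1 transcript over 2000 bp (nominal fragment 200 bp, 0.15 tolerance) and bears on counting error alone; too few values came out whole for a count test.

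Log2(FPKM + 1) was analysed in R 4.3.3 by limma 3.58.1 (diet, variance trend, two-sided) where the mean over the libraries reached 0.5 FPKM, with Benjamini-Hochberg adjustment over all of them. The code was tested on simulated data. Of entries sharing a symbol, that of highest mean was kept. The genes, motifs, marker lists and other cascade genes were chosen with earlier results of these data known. By rule, values of every library are given for the rising genes with the largest changes (up to 4 per role), any listed gene may be named, and of the other cascade genes the 3 largest rises and falls are named. Deviations from the mean of each diet correlated weakly between same-numbered samples (0.257, 0.143 and 0.181), and from -0.187 to 0.0376 between the others. Centring on 3 samples makes these correlations depend on one another, and no label states a pairing, so it is not established. A fit with the number as a block was only an alternative, with pseudocounts, filters, scalings, thresholds and omitted libraries. Figures were drawn with matplotlib 3.10.9. Promoter windows are from RefSeq on GRCm38.p6.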

Additional observations from a re-analysis of the deposited data

How the results depend on the processing

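With the replicate number as a block, 26 of the listed genes were higher and 0 lower, and no call of a listed gene changed. With median-of-ratios scaling, 3 were lower, with quantile normalization 4, and with the block and median-of-ratios scaling together 3; leaving out 1 library gave 0 to 2 lower and 20 to 27 higher. In these fits of limma the sign of genes near 0 turned. With median-of-ratios scaling, with or without the block, Cfb was at -0.16, Cr1l at -0.21 and Tfpi2 at -0.24, and with quantile normalization Cr1l was at -0.052 and Tfpi2 at -0.36 on the log2 scale. Leaving out 1 library put Cfd between -0.57 (without standard 3) and 1.83 (without adenine 3), with -0.11 without adenine 1 and -0.33 without adenine 2, and Tfpi2 between -0.17 (without adenine 2) and 0.17 (without adenine 1). Changes of the 26 rising genes kept their sign in every fit made. With no filter on low values Vwf was not called (adjusted p = 0.0651), while F7 and Serpind1, not tested in the main fit, were called higher (0.0199 and 0.0183). F10 was not called with the block and median-of-ratios scaling together (0.056).

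Of the other cascade genes, leaving out 1 library gave 16 to 24 higher and 1 to 7 lower, an adjusted p under 0.01 gave 15 higher and 1 lower, and a mean of at least 5 FPKM gave 1 lower; with median-of-ratios scaling 8 were lower, under quantile normalization 5 and 10 with the block and median-of-ratios scaling. Over all tested genes 4581 were higher and 1056 lower. Median-of-ratios scaling gave 2598 and 2344, quantile normalization 2140 and 2237, and there were 2673 and 2589 with the block and median-of-ratios scaling, and 1324 and 154 at an adjusted p under 0.01. Leaving out 1 library gave 1888 to 5452 higher and 231 to 1594 lower. On a transcript of 2 kb, 3 fragments correspond to 0.0712 to 0.0958 FPKM, depending on the library.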
